A study of Mus musculus with 22 samples.

Results

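Keg1, Slc23a3, Enpep, Fxyd2 and Tff2 are epithelial genes, most of them known from the renal tubule. They were brighter on the array of uncultured primordial germ cells (PGCs) than on any day of culture, and fell through the time course, though not at every step. They were chosen by those measured levels, on the arrays of the time course, and their probes were found by gene name in the scanner files: 6 probes for 5 genes, of 41174 probes and 28104 genes on the array. Each of 22 one-colour mouse arrays held 1 group, so no group was replicated. The study followed PGCs from mouse embryos at E11.5 into culture, where they convert to pluripotent embryonic germ cells (EGCs), and asked how inhibitors and forced germ cell genes act on that conversion.

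The time course groups were uncultured E11.5 PGCs, PGC cultures at day 1 with bFGF, at days 2, 3 and 6 with bFGF, 2i and A83-01, and at day 10 in a medium that the labels do not give, and an EGC line, beside a blastocyst-derived embryonic stem cell (ESC) line. The compound 2i is a pair of inhibitors, PD325901 against MEK at 1 uM and CHIR99021 against GSK3 at 3 uM. A83-01, at 250 nM, inhibits the receptors of activin and TGF-beta. Further cultures at day 2 held bFGF with the MEK inhibitor, the GSK inhibitor, A83-01, or 4-hydroxytamoxifen (4OHT, at 100 nM), by which AKT is activated, and 1 culture held all of these agents, 2i, A83-01 and 4OHT. Their control was bFGF alone. The last groups were EBRTcH3 ESCs with forced Blimp-1, Prdm14, Vasa, Nanos2, Nanos3 or Dnd, and as controls EBRTcH3 cells with GFP and parental cells. The Blimp-1 and GFP titles add an EF1a promoter, an IRES-GFP cassette and day 2, which the titles of the other constructs do not. The medium given for cultured cells was Knockout DMEM with KSR and LIF. A surface carbohydrate, SSEA-1, served to sort PGCs before and after culture and both lines, and cells with constructs on GFP, while no sort is given for the parental cells. The array of Dnd cells carries a second label that spells the forced gene End.

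The proximal tubule is the first stretch of the nephron after the glomerulus. Its cells carry a brush border and take up sodium, sugars, amino acids and vitamins from the filtrate, driven by the sodium pump, and the nuclear receptor Hnf4a is known to regulate many of their transporters and enzymes. In the mouse embryo the gonad forms on the surface of the mesonephros, the embryonic kidney, and PGCs reach it by about the stage sampled here. Fxyd2 encodes the gamma subunit of the sodium pump, a small membrane protein that tunes the pump in kidney. Slc23a3 encodes a proximal tubule member of the family of sodium-dependent ascorbate transporters. Enpep encodes aminopeptidase A, a brush border enzyme that trims angiotensin II. Keg1, kidney expressed gene 1, encodes a protein like the glycine N-acyltransferases. Tff2 encodes trefoil factor 2, a secreted peptide best known from gastric mucus, so that its place among tubule genes rests on its pattern here.

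The probes of Fxyd2 and Tff2 are shown because each covers more genome than its 60 bases, so that each crosses an intron and reads spliced RNA. The positions are those of mm9, as the scanner files give them. The Fxyd2 probe A_52_P611783, of NM_052823, lies at chr9:45216199-45216413 on the forward strand, a span of 215 bases. The Tff2 probe A_51_P480602, of NM_009363, lies at chr17:31279256-31280080 on the reverse strand, a span of 825 bases.
Fxyd2 probe: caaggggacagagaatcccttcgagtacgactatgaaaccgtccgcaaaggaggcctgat
Tff2 probe: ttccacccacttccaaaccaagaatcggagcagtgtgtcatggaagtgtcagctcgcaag
Each of the other 4 probes matched a single unbroken stretch of 60 bases. The Slc23a3 probe A_51_P424550 (NM_194333) lies at chr1:75122133-75122192 on the reverse strand, and the Enpep probe A_51_P161830 (NM_007934) at chr3:128972910-128972969 on the reverse strand. The Keg1 probes A_51_P492153 and A_52_P653825 (both NM_029550) lie at chr19:12793924-12793983 and chr19:12794066-12794125 on the forward strand.

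Values below are levels, the log2 intensity of a spot minus the log2 of the 75th percentile of its array, so that 0 is as bright as that percentile and each step of 1 is a 2-fold difference. Levels are not set against each other between genes, since probes differ in brightness. The only error that 1 array gives is the scanner's own error of a spot, which had a median of 0.15 and a range of 0.14 to 0.29 (log2) over the 60 member spots called well above background. It does not cover the spread between cultures. A spot not well above background has only an upper bound, taken from the dimmest probe that still passed this call on the array. That floor lay between -5.70 and -2.60, the 75th percentile of intensity between 120 and 750, and the share of probes well above background between 44.3% and 64.7%. The array with 2i, A83-01 and 4OHT was the dimmest by each of these measures, and the next 3 by the 75th percentile were parental EBRTcH3 at 195, Blimp-1 at 195 and uncultured PGCs at 203. No member spot was saturated.

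All 5 genes were well above background in uncultured PGCs and at days 1, 2 and 3. At day 6 only 2 of 5 were, Slc23a3 and Fxyd2, at day 10 and on the EGC array 1 of 5 each, and on the ESC and parental EBRTcH3 arrays 0 of 5. In uncultured PGCs all 5 were at least 2-fold higher than in the ESC line (32.4% of genes were), the EGC line (29.2%) and parental EBRTcH3 cells (16.1%), mostly as bounds. These levels chose the genes and are given as a description, with no test.

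Fxyd2, the sodium pump subunit, had a level of 4.84 in uncultured PGCs, 0.25 at day 1, -0.92 at day 2, -1.24 at day 3, -3.59 at day 6 and -4.27 at day 10. It was not well above background in the EGC line (-6.05) or the ESC line (-7.02). Fxyd2 was thus the gene that differed most over the first day, 24.1-fold lower at day 1 than in uncultured PGCs, and the only one of the 5 still measured at day 10. In uncultured PGCs it was at least 1335-fold higher than in the EGC line and at least 984-fold higher than in the ESC line.

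Slc23a3, the ascorbate transporter relative, had levels of 1.17 in uncultured PGCs, -0.12 at day 1, -2.18 at day 2, -3.31 at day 3 and -4.15 at day 6. It was not well above background at day 10 (-5.64), in the EGC line (-7.77) or in the ESC line (-7.29). Its difference over the first day, 2.45-fold lower at day 1 than in uncultured PGCs, was the smallest of the 5, and over the second day it was 4.15-fold lower again.

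Enpep, aminopeptidase A, had levels of -1.08 in uncultured PGCs, -2.49 at day 1, -2.93 at day 2 and -4.04 at day 3, and was not well above background at day 6 (-5.23) or day 10 (-6.16). In the EGC line it was well above background again at -3.81, while in the ESC line it was not (-7.39). The EGC line was at least 2.55-fold higher in Enpep than day 10 and at least 2.44-fold higher than the ESC line, where 11.8% of genes were at least 2-fold higher. None of the other 4 genes was well above background on either line.

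Keg1 had levels of 1.81 in uncultured PGCs, -0.78 at day 1, -3.17 at day 2 and -3.10 at day 3, and then was not well above background at day 6 (-5.96), day 10 (-7.15), in the EGC line (-7.78) or in the ESC line (-5.41). Days 2 and 3, on different slides, differed by less than the scanner error of the pair, so no decline of Keg1 was measured between them. The second Keg1 probe was dimmer by 0.64 to 1.11 (log2; median 0.82) on the 9 arrays where both probes were well above background, and ran in parallel with the first, with a Pearson correlation of 0.996 over those arrays as a description.

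Tff2, the trefoil peptide, had levels of 2.03 in uncultured PGCs, -0.42 at day 1, -1.77 at day 2 and -2.18 at day 3. It was not well above background at day 6 (-5.74), day 10 (-5.98), in the EGC line (-6.72) or in the ESC line (-6.96). Between days 3 and 6, on 1 slide, Tff2 was at least 8.31-fold lower at day 6.

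**Figure D1:**
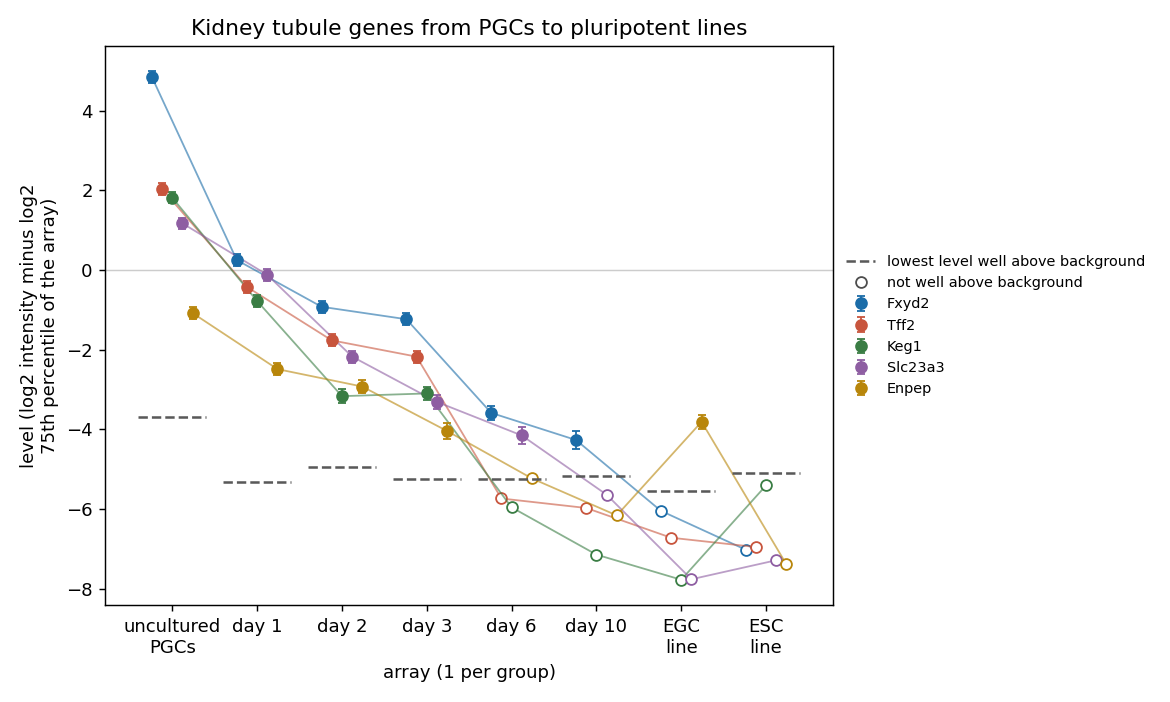
Level (log2 intensity minus log2 of the 75th percentile of the array) of the 5 genes on 8 arrays, from uncultured PGCs through days 1 to 10 of culture to the EGC and ESC lines. Filled points are well above background with bars for the scanner's error of the spot, open points are not, and dashed lines mark the floor of each array. All 5 genes were filled from PGCs to day 3, and Enpep alone was filled in the EGC line at -3.81.

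Counted over each interval, all 5 genes were at least 2-fold lower at day 1 than in uncultured PGCs, where 34.0% of the 17192 genes measured were. This share, and the median of all genes that follows, take in genes dim in uncultured PGCs at that array's floor (-3.68, against -5.33 at day 1). Both can thus overstate the fall of genes at large. The median difference of all genes was -0.53 (log2) between these arrays, which lay on different slides, and with that shift taken off 3 of the 5 were still at least 2-fold lower. At day 2 with 2i and A83-01, 4 of 5 were at least 2-fold lower than at day 1 on the same slide (5.09% of genes), and at day 2 with bFGF alone 3 of 5 were (5.27%). At day 3 against day 2 it was 2 of 5 (5.87%), at day 6 against day 3 on 1 slide 4 of 5 (7.59%), and at day 10 against day 6 it was 1 of the 2 that could be compared (9.45%). In the EGC line against day 10, Fxyd2 was at least 2-fold lower (6.46% of genes) and Enpep at least 2-fold higher (5.49%). At day 3, on another slide than day 1, all 5 were at least 2-fold lower than in uncultured PGCs (34.3% of genes), by 7.79-fold for Enpep to 67.6-fold for Fxyd2. Since the genes were picked for falling through these arrays, nothing is read from these counts. The arrays are bulk samples, in which fewer cells of a type and less RNA per cell cannot be told apart.

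The label of the group was set against 16 lists of marker and pathway genes that leave the 5 genes out. Of 26 proximal tubule genes, 20 were well above background in uncultured PGCs and 18 at day 1. Their summed intensity, in units of the array's 75th percentile, was 12.0 at day 1, against 86.0 in uncultured PGCs, and lay between 6.41 and 14.3 on all 21 other arrays. At day 1, 16 of the 21 that could be compared were at least 2-fold lower than in uncultured PGCs and 1 was at least 2-fold higher, with a median log2 difference of -2.48, against -0.53 over all genes. Slc34a1, the sodium-phosphate cotransporter of the proximal tubule, was not well above background at day 1, against a level of 0.86 in uncultured PGCs, a difference of at least 73.2-fold. Miox, the tubule enzyme that oxidises inositol, was at -3.73 at day 1 and 1.46 in uncultured PGCs. Slc22a6, an organic anion transporter, was at -2.93 at day 1 and 1.63 in uncultured PGCs. Amn, amnionless, a part of the receptor for vitamin B12 with intrinsic factor, was at -0.32 at day 1 and 3.85 in uncultured PGCs.

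Genes of later nephron segments were mostly dim on the same array. Of 12 loop of Henle and distal tubule genes only 2 were well above background in uncultured PGCs, Calb1, a calcium-binding protein, at -0.997 and Umod, uromodulin, at -3.21, and neither was at day 1. Of 13 collecting duct and Wolffian duct genes 5 were well above background in uncultured PGCs, and their summed intensity was 1.73 at day 1 and 1.76 in uncultured PGCs. Wnt9b, a Wolffian duct ligand, was not well above background at day 1, against -2.03 in uncultured PGCs, and Gata3, a duct transcription factor, was at -1.35 at day 1 and not well above background in uncultured PGCs. The proximal list was not silent elsewhere: 15 of its 26 genes were well above background in the ESC line, and 10 to 18 on the 21 arrays other than uncultured PGCs. Of 10 gastric mucosa genes 3 were well above background in uncultured PGCs: Muc6 at -1.88, Gkn3 at -1.88 and Muc5ac at -3.11. The genes beside Tff2 on its chromosome, Tff1 and Tff3, were not well above background there.

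Transcription factors and cadherins of the nephric lineage were present in uncultured PGCs, 12 of 15 well above background, and at day 1 all 15 were. The floor was -5.33 at day 1 and -3.68 in uncultured PGCs, so no gain is read from these counts. At day 1, 7 of 15 were at least 2-fold lower than in uncultured PGCs, where 34.0% of all genes were, with a median difference of -0.99, against -0.53 over all genes. Hnf4a was at -2.53 at day 1 and 0.66 in uncultured PGCs. Irx1, a factor of the middle part of the nephron, was at -0.68 at day 1 and 2.17 in uncultured PGCs. The nephric lineage factors that come earlier in development differed less: Lhx1 was at 0.30 at day 1 and 0.02 in uncultured PGCs, and Pax8 at -2.29 at day 1 and -2.14 in uncultured PGCs. Pax2, another early factor, was at -5.04 at day 1 and -3.28 in uncultured PGCs, 3.38-fold lower. Cdh16, the kidney cadherin, was at 3.20 at day 1 and 2.92 in uncultured PGCs. Emx2, a factor of the urogenital epithelium, was at -3.92 at day 1 and -2.11 in uncultured PGCs, and Pou3f3, a nephron factor, at -4.33 at day 1 and -2.74 in uncultured PGCs. Irx2 was at -2.33 at day 1 and -1.34 in uncultured PGCs, and the cadherin Cdh6 at -0.94 at day 1 and -1.66 in uncultured PGCs. Of 10 genes of nephron progenitors and podocytes, 5 of 9 compared were at least 2-fold lower at day 1 and 1 higher, Osr1, an intermediate mesoderm factor, at 0.71 at day 1 and -3.01 in uncultured PGCs.

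Markers of other cell types moved between the same arrays. Of 11 blood cell genes 2 were well above background at day 1, against 7 in uncultured PGCs, and their summed intensity was 0.393 at day 1 and 60.5 in uncultured PGCs, with at most 5.95 on the other arrays. The embryonic globin Hbb-y was not well above background at day 1, against 4.79 in uncultured PGCs, and Hba-a1 was at -2.20 at day 1 and 3.59 in uncultured PGCs. Of 15 gonadal somatic genes 11 were well above background at day 1 and 12 in uncultured PGCs, with a summed intensity of 4.18 at day 1 and 4.33 in uncultured PGCs. Of 13 gonadal genes compared, 8 were at least 2-fold lower at day 1 and 3 higher, with a median difference of -1.64. These values can include a gene dim in uncultured PGCs that was set to the floor of that array. Of 7 endothelial genes 4 were well above background at day 1 and 4 in uncultured PGCs, with sums of 1.67 at day 1 and 1.75 in uncultured PGCs. Esam, measured on both arrays, was 2.87-fold lower at day 1, and Pecam1 was 1.25-fold higher. No count is given for this list, since it would hold as lower a gene that was dim in uncultured PGCs and set to the floor. All 9 germ cell genes were well above background on both arrays, with sums of 68.9 at day 1 and 122 in uncultured PGCs. The part of these cells in the levels of the 5 genes was not tested.

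**Figure D2:**
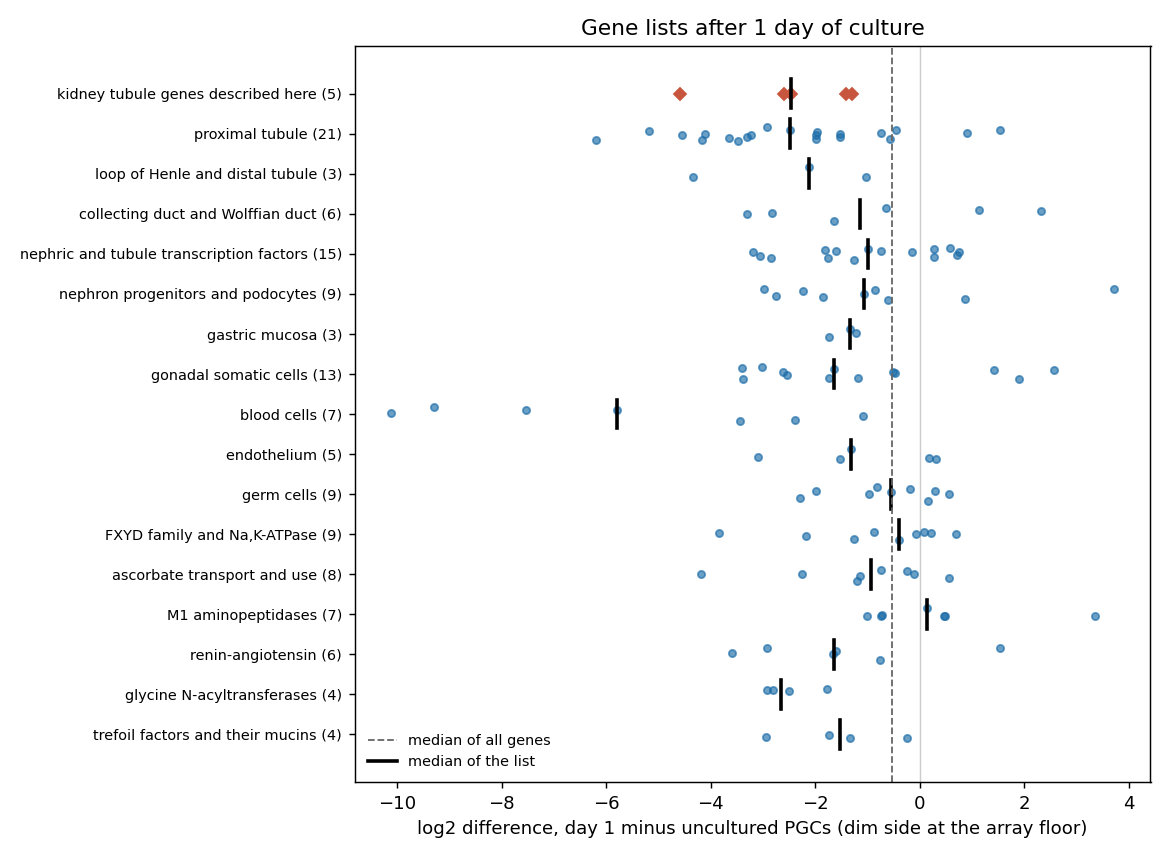
Log2 difference, day 1 minus uncultured PGCs, of the 5 genes (diamonds) and of each gene of 16 lists that was well above background on either array (points), with the dim side set to the array's floor. Black bars are list medians, the dashed line is the median of all genes at -0.53, and bracketed numbers are genes compared; blood genes have the lowest median, and the proximal tubule list a median of -2.48.

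Relatives of each gene by family or pathway were compared between the same arrays, where 34.0% of all genes were at least 2-fold lower at day 1. In the list of sodium pump subunits and other FXYD proteins, 3 of 9 genes compared were at least 2-fold lower at day 1 than in uncultured PGCs, close to the share of all genes. Fxyd4, a kidney relative, was not well above background at day 1, against -1.498 in uncultured PGCs, while the pump subunit Atp1b1 was at 3.24 at day 1 and 4.49 in uncultured PGCs, and Fxyd6 at 3.37 at day 1 and 4.25 in uncultured PGCs. Fxyd6 lies next to Fxyd2 on its chromosome. Slc23a1, the renal and intestinal ascorbate transporter, was at -5.16 at day 1 and -0.98 in uncultured PGCs, 18.1-fold lower, and 4 of 8 genes of ascorbate transport and use were at least 2-fold lower. Among M1 aminopeptidases, the family of Enpep, 1 of 7 was at least 2-fold lower, Lnpep, at -1.58 at day 1 and -0.56 in uncultured PGCs, and 1 higher, Erap1, at 0.51 at day 1 and -2.86 in uncultured PGCs. In the renin-angiotensin list 4 of 6 were at least 2-fold lower, among them the peptidase Ace at -4.08 at day 1 and -2.43 in uncultured PGCs. All 4 measured genes of glycine N-acylation and its acyl-CoA ligases were at least 2-fold lower, among them Glyat, which lies 3 protein-coding genes from Keg1, at -1.10 at day 1 and 0.67 in uncultured PGCs. Of 4 measured mucins and receptors linked to trefoil peptides 3 were at least 2-fold lower, with Cxcr4 at -1.92 at day 1 and 1.03 in uncultured PGCs. Ackr3, another chemokine receptor of that list, was at -0.13 at day 1 and 0.12 in uncultured PGCs, within a 2-fold difference.

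At day 2 of culture the additions to bFGF gave contrasts that did not choose the genes, although the array with 2i and A83-01 is also part of the time course. The contrasts share the bFGF array, and the additive limma fit over all 7 arrays took departures from additivity as its error, with 2 residual degrees of freedom. Fxyd2 had levels of -2.74 with the MEK inhibitor, -0.59 with the GSK inhibitor, -0.84 with A83-01, -0.92 with 2i and A83-01, 0.32 with 4OHT, 1.34 with 2i, A83-01 and 4OHT, and -2.29 with bFGF alone. Slc23a3 had levels of -4.12 with the MEK inhibitor, -1.09 with the GSK inhibitor, -0.83 with A83-01, -2.18 with 2i and A83-01, -0.21 with 4OHT, 0.96 with 2i, A83-01 and 4OHT, and -2.13 with bFGF alone. Both genes were lowest with the MEK inhibitor and highest with all agents together.

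Keg1 had levels of -3.96 with the MEK inhibitor, -1.47 with the GSK inhibitor, -1.34 with A83-01, -3.17 with 2i and A83-01, -1.50 with 4OHT, -0.33 with 2i, A83-01 and 4OHT, and -2.98 with bFGF alone. It too was lowest with the MEK inhibitor and highest with all agents together. Tff2 had levels of -1.37 with the MEK inhibitor, -0.76 with the GSK inhibitor, -3.10 with A83-01, -1.77 with 2i and A83-01, -0.93 with 4OHT, 0.36 with 2i, A83-01 and 4OHT, and -1.36 with bFGF alone. It was lowest with A83-01, and the MEK inhibitor and bFGF arrays could not be told apart within the scanner error. Enpep had levels of -4.90 with the MEK inhibitor, -3.23 with the GSK inhibitor, -3.67 with A83-01, -2.93 with 2i and A83-01 and -3.43 with bFGF alone, and was not well above background with 4OHT (-4.52) or with 2i, A83-01 and 4OHT (-4.86). Those 2 arrays had high floors, at -3.83 with 4OHT and -2.60 with 2i, A83-01 and 4OHT, so that with 4OHT Enpep was at least 1.32-fold lower than with bFGF alone and with all agents it had no bound.

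With the MEK inhibitor, 2 of the 5 genes were at least 2-fold lower than with bFGF alone, Slc23a3 by 3.98-fold and Enpep by 2.78-fold, where 3.53% of genes were, and Keg1 was 1.97-fold lower. In the limma fit, 0 of 5 passed an adjusted p under 0.05 for the MEK inhibitor, as did 0% of 19095 genes, of which 621 had an unadjusted p under 0.05. The fitted log2 differences were -1.94 for Slc23a3 (SE 0.37, limma adjusted p = 0.956) and -1.60 for Keg1 (SE 0.55, limma adjusted p = 1.00). With slide as a block in place of the 4OHT term, 2 of 5 passed, among 622 of 19095 genes. These were Slc23a3 with a limma adjusted p of 0.0033 and Keg1 with a limma adjusted p of 0.025. Without the array of the MEK inhibitor alone 1 of 5 passed, among 1639 of 18783 genes. Each of these 2 fits left only 1 residual degree of freedom. The array of the MEK inhibitor lay on another slide than that of bFGF alone. Of 16 proximal tubule genes compared, 3 were at least 2-fold lower and 3 higher.

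With the GSK inhibitor, on another slide than bFGF alone, 3 of 5 were at least 2-fold higher, Fxyd2 by 3.26-fold, Keg1 by 2.85-fold and Slc23a3 by 2.05-fold, where 11.6% of genes were. In limma 0 of 5 passed, as did 0% of genes, of which 907 had an unadjusted p under 0.05. The fitted differences were 1.17 for Fxyd2 (SE 0.33) and 1.09 for Slc23a3 (SE 0.37), each with a limma adjusted p of 0.901. Of 15 nephric factors and cadherins 9 were at least 2-fold higher and 0 lower, and of 17 proximal tubule genes 6 were higher and 1 lower.

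With A83-01, also on another slide than bFGF alone, the same 3 genes were at least 2-fold higher, Keg1 by 3.12-fold, Fxyd2 by 2.75-fold and Slc23a3 by 2.45-fold, where 6.95% of genes were. Tff2 alone was at least 2-fold lower, by 3.32-fold, where 5.99% of genes were. In limma 0 of 5 passed for A83-01, as did 0% of genes, of which 711 had an unadjusted p under 0.05. The fitted difference was -1.20 for Tff2 (SE 0.44) and 1.35 for Slc23a3 (SE 0.37), each with a limma adjusted p of 1.00. Germ cell genes were lower on the same array, 8 of 9 at least 2-fold, with a median of -1.81, and the part of this in the result was not tested. Of 18 proximal tubule genes 3 were higher and 0 lower.

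With 2i and A83-01 together, on the slide of the bFGF array, 1 of 5 was at least 2-fold higher, Fxyd2 by 2.59-fold, where 2.01% of genes were. Keg1, Slc23a3 and Tff2 differed by -0.18, -0.05 and -0.40 (log2), within the joint scanner error for Keg1 (0.23) and Slc23a3 (0.21) and beyond it for Tff2 (0.21). In limma 0 of 5 passed for the sum of these 3 terms, as did 0% of genes, of which 478 had an unadjusted p under 0.05, and the fitted difference of Fxyd2 was 1.12 (SE 0.37, limma adjusted p = 1.00).

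With 4OHT, 3 of 5 were at least 2-fold higher than with bFGF alone, Fxyd2 by 6.13-fold, Slc23a3 by 3.79-fold and Keg1 by 2.80-fold, where 28.0% of genes were and the median of all genes was 0.43 higher. Genes dim with 4OHT entered this share and median at a floor of -3.83, against -5.37 with bFGF alone, so both can be too high. In limma 0 of 5 passed for 4OHT, as did 0% of genes, although an unadjusted p under 0.05 was found for 8893 of 19095, with limma adjusted p-values of 0.0526 and above. Slc23a3 had a fitted difference of 2.39 (SE 0.36) and Fxyd2 of 2.20 (SE 0.31), each with a limma adjusted p of 0.0526, against a median of 0.57 over all genes. Keg1 had 1.64 (SE 0.53, limma adjusted p = 0.083), Tff2 1.34 (SE 0.42, limma adjusted p = 0.079) and Enpep, dim with 4OHT, -1.08 (SE 0.44, limma adjusted p = 0.123). The count depended on single arrays and on processing: 5 of 5 passed without the array of the MEK inhibitor, the GSK inhibitor or A83-01, 2 without bFGF alone, and 0 when any 1 of the 3 remaining arrays was left out, while 5 passed with normexp correction, 4 with no filter on dim probes and 2 with the mean of a gene's probes. Many genes passed in the same settings: 9432 of 18783 without the MEK inhibitor array, 9550 of 18926 without the GSK inhibitor and 9228 of 18520 without A83-01. Without bFGF alone 3182 of 18839 genes passed, with normexp 8735 of 19052, with no filter 15772 of 28073 and with the mean of probes 4107 of 19204. Each fit with an array left out had 1 residual degree of freedom. A count of 5 of 5 includes Enpep, which was dim on both 4OHT arrays. These counts also do not separate directions, and the fitted difference of Enpep above was negative while those of the other genes were positive. Both 4OHT arrays shared 1 slide that held no other array and had lower 75th percentiles than the other 5 arrays of day 2, so 4OHT and slide cannot be told apart.

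Within that slide, 2i, A83-01 and 4OHT gave 4 of 5 at least 2-fold higher than 4OHT alone, where 9.35% of genes were, by 2.44-fold for Tff2, 2.25-fold for Keg1, 2.24-fold for Slc23a3 and 2.03-fold for Fxyd2. The median of all genes was 0.30 higher, and with it taken off 0 of 5 remained at 2-fold. Genes dim with all agents entered this median and share at a floor of -2.60, against -3.83 with 4OHT. Both can thus be too high, and nothing is read from the 0. Against 2i and A83-01 without 4OHT, on another slide, the same 4 genes were 4.36-fold to 8.76-fold higher, where 42.6% of genes were at least 2-fold higher and the median of all genes was 0.73 higher. That share and median carry the same limit, with a floor of -4.95 for 2i and A83-01 without 4OHT.

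**Figure D3:**
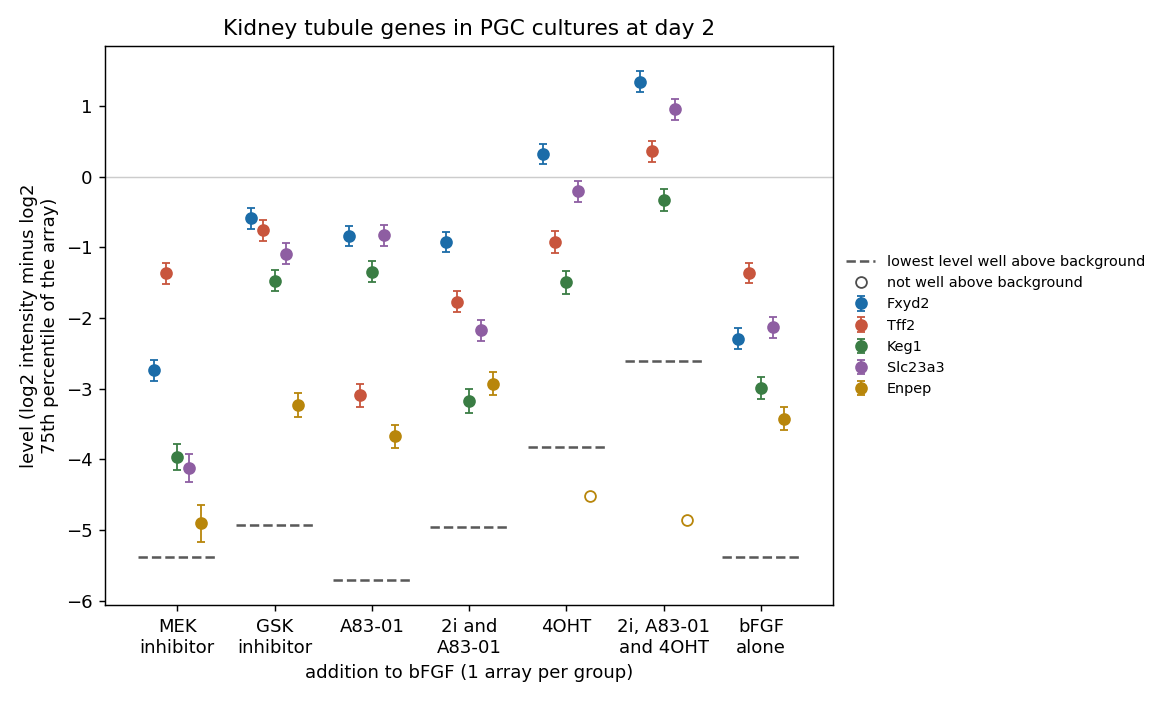
Level of the 5 genes (log2 intensity minus log2 of the 75th percentile of the array) in PGC cultures at day 2, with 6 additions to bFGF and, at the right, bFGF alone, 1 array each. Filled points are well above background with bars for the scanner's error, open points are not, and dashed lines mark each array's floor; Fxyd2, Slc23a3, Keg1 and Tff2 were highest with 2i, A83-01 and 4OHT, and Enpep was not measured on either 4OHT array.

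The forced genes addressed what germ cell factors do in ESCs, where the 5 genes were dim. EBRTcH3 is an ESC line into which genes can be inserted for induced expression. Blimp-1, encoded by Prdm1, is a zinc finger repressor required for PGC specification, and Prdm14 is its relative. Slc23a3 was at -0.52 with Blimp-1 and -2.57 with Prdm14, and not well above background with Vasa (-5.82), Nanos2 (-4.83), Nanos3 (-5.40), Dnd (-5.30), GFP (-5.42) or in parental cells (-5.69). With Blimp-1 its level was above that of PGC cultures with A83-01 at day 2. Fxyd2 was at -1.44 with Blimp-1, -3.51 with Prdm14 and -3.82 with Vasa, -4.24 with GFP, and not well above background with Nanos2 (-4.84), Nanos3 (-7.56), Dnd (-7.04) or in parental cells (-5.14). Tff2 was at -2.99 with Blimp-1 and -3.35 with Prdm14 and not well above background on the 6 other arrays. Keg1 and Enpep were not well above background on any of the 8, with levels at or below -4.83.

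Against GFP on the same slide, Blimp-1 gave 3 of 5 at least 2-fold higher, where 11.9% of genes were. Slc23a3 was at least 19.6-fold higher, Fxyd2 6.95-fold higher and Tff2 at least 3.53-fold higher, and the differences of Slc23a3 and Fxyd2 lay above those of 99.98% and 99.3% of genes. The limma fit over the 8 EBRTcH3 arrays, with slide as a block and 4 residual degrees of freedom, set each construct against all other arrays of its slide, which for Blimp-1 is GFP. It used spots as measured, dim ones included. Slc23a3, Fxyd2 and Tff2 entered it, and Slc23a3 and Tff2 did so only through the Blimp-1 and Prdm14 arrays, where they were well above background, so for these constructs nothing is read from their fitted values. For Blimp-1 0 of 3 passed, as did 0% of 19269 genes, of which 934 had an unadjusted p under 0.05. The fitted log2 difference of Fxyd2, measured on both arrays, was 2.80 (SE 1.36, limma adjusted p = 1.00). Of 15 proximal tubule genes compared 8 were at least 2-fold higher and 2 lower, with a median difference of 1.07, against 0.12 over all genes. The collecting duct list had 4 of 5 higher and 0 lower, and blood genes 0 of 4 higher.

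Prdm14 against parental cells, on 1 slide, gave no difference of 2-fold, since parental cells had a high floor at -3.48: Slc23a3 was at least 1.88-fold higher and Tff2 at least 1.09-fold higher. There, 12.2% of genes were at least 2-fold higher. In limma, where Prdm14 was set against parental and Vasa arrays together, 0 of 3 passed for Prdm14 with 0% of genes called, of which 1197 had an unadjusted p under 0.05. Vasa was set against parental and Prdm14 arrays, and 0 of 3 passed, with 0% of genes called and 530 at an unadjusted p under 0.05. The slide of Nanos2, Nanos3 and Dnd held no control, so that each was set against the other two and not against GFP or parental cells. For these 0 of 3 passed, with 0%, 0% and 0.0104% of genes called and 561, 1754 and 435 at an unadjusted p under 0.05 for Nanos2, Nanos3 and Dnd. On each of the Nanos2, Nanos3 and Dnd arrays 0 of 5 genes were well above background. Their fits thus compared dim spots, and nothing is read from them. A lone array of a construct is assumed to vary like the other groups.

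**Figure D4:**
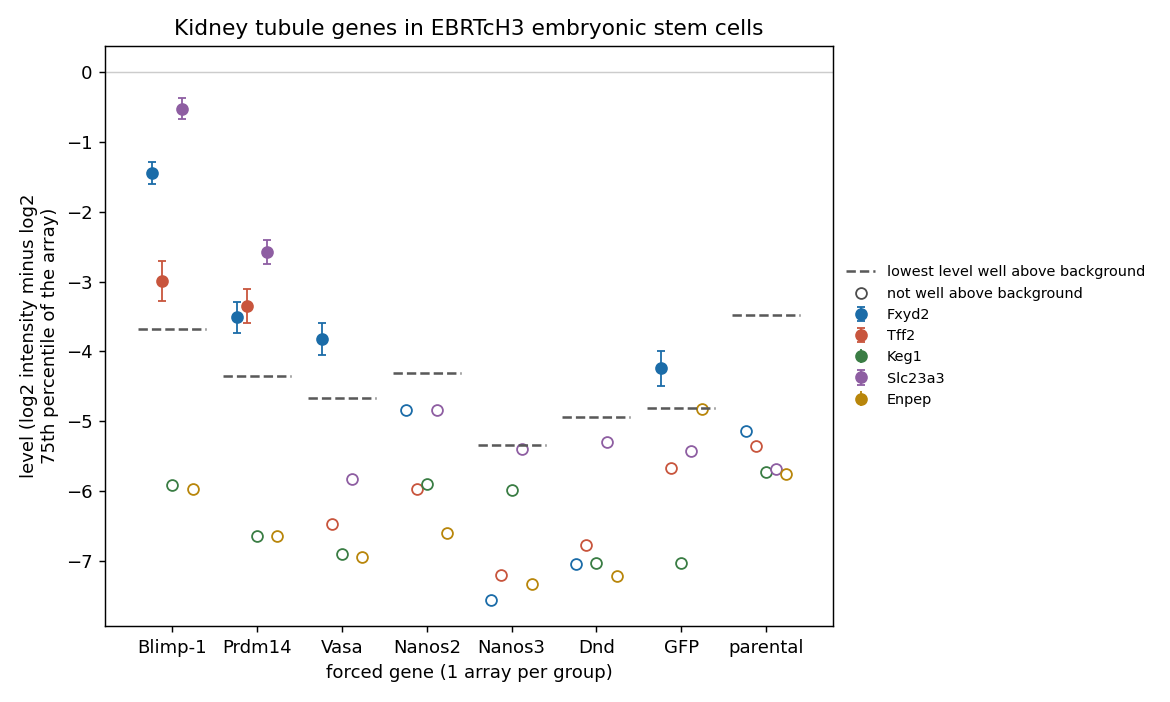
Level of the 5 genes (log2 intensity minus log2 of the 75th percentile of the array) in EBRTcH3 ESCs with 6 forced genes and, at the right, GFP and parental controls, 1 array each. Filled points are well above background with bars for the scanner's error, open points are not, and dashed lines mark each array's floor; Slc23a3 stood at -0.52 and Fxyd2 at -1.44 with Blimp-1, and no gene was filled in parental cells.

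Ordered by level over the arrays where it was measured, each gene was highest in uncultured PGCs, and for Fxyd2, Tff2, Keg1 and Slc23a3 the array with 2i, A83-01 and 4OHT came next, before day 1. That array was the dimmest of the 22, and the median of all genes on it was 0.73 higher than with 2i and A83-01 without 4OHT. Dim genes entered that median at the floor of their array, so it can be too high. No such shift was taken off in this order. Keg1, Tff2 and Slc23a3 stood 0.45, 0.78 and 1.08 above day 1 on it, and Fxyd2 stood 1.02 above 4OHT alone. For Slc23a3 the first 2 places differed by 0.22, just over the joint scanner error of 0.21. Neighbours in the order were closer than their joint scanner error in 6 of 15 pairs for Fxyd2, 4 of 11 for Tff2, 3 of 12 for Slc23a3, 4 of 9 for Keg1 and 3 of 8 for Enpep. Over the 22 arrays the 5 genes correlated with each other at Pearson values of 0.83 to 0.96. The lowest was between Enpep and Slc23a3 and the highest between Fxyd2 and Keg1. This describes arrays that share slides and brightness. The genes were picked for a shared fall, and levels below an array's floor were set to that floor. High values were thus built in, and nothing is read from them.

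Among 14809 genes well above background on at least 3 arrays, those with the pattern most like the mean of the 5, by Pearson correlation over 22 arrays, included B3galt5 (0.971), a galactosyltransferase, Marchf1 (0.957), a membrane ubiquitin ligase, Cpb2 (0.955), a plasma carboxypeptidase, Anks4b (0.953), a brush border scaffold, Hsd3b5 (0.948), a liver steroid reductase, Tinag (0.943), a tubule basement membrane protein, Tmem116 (0.943), Cutal (0.941) and Clrn3 (0.937), a clarin. Cpb2 was at 2.91 in uncultured PGCs, -0.68 at day 1 and -2.92 at day 3. Tinag was at 1.94 in uncultured PGCs, -0.28 at day 1 and -1.90 at day 3. Hsd3b5 was at 3.11 in uncultured PGCs, -0.39 at day 1 and -1.86 at day 3. These 3 were thus above the 75th percentile in uncultured PGCs and below it at days 1 and 3.

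Taken gene by gene, the most alike were Pantr1 (0.965), Hsd3b5 (0.963) and Anks4b (0.961) for Keg1, and Hsd3b5 (0.966), Cutal (0.961) and Cpb2 (0.960) for Fxyd2. For Slc23a3 they included Chst13 (0.925) and Tmed6 (0.915), for Enpep B3galt5 (0.921), Cpb2 (0.886) and Kansl1l (0.884), and for Tff2 Dynlrb2 (0.946), Marchf1 (0.941) and Tmem116 (0.939).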

How the data were processed

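Each array held 1 group, so the report rests on differences between single arrays and on 2 additive fits. Per the file headers, the deposited scanner intensity values came from Agilent Feature Extraction 10.7.3.1, which subtracted background and detrended each array, with no scaling between arrays, and the design was annotated on mm9. The deposited value table held the same processed intensity, linear and not centred, with column medians of 15.9 to 70.1. From these, repeat spots were averaged without outlier spots, log2 was taken, and the log2 of each array's 75th percentile was subtracted. The brightest probe on average stood for a gene. Gene names came from accessions (26918 probes), symbols (5082), synonyms (817) or the files (8357). In differences between 2 arrays, a dim side was set to the higher of the array's floor and its own value, while the fits used values as measured. For correlations between genes, levels below an array's floor were set to that floor.

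The day 2 fit held 7 arrays and the fit of forced genes 8, with slide as a block (limma 3.58.1 in R 4.3.3, two-sided, Benjamini-Hochberg adjusted p under 0.05, checked on simulated data). Probes dim on all arrays of a fit were left out. Tables used Python 3.11.15 with pandas 2.3.3. Genes to name were, per list, up to 4 with the widest differences between day 1 and uncultured PGCs, all nephric factors well above background in uncultured PGCs, the 10 genes most like the mean of the 5 and the 3 most like each. Some items that this rule names are not reported here. The 5 genes and the lists were chosen with earlier results of these data known. Alternatives were normexp correction, quantile normalization, the value table, the mean of probes, no filter, slide terms, dim values as measured and leaving out arrays.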

Additional observations from a re-analysis of the deposited data

Results flagged for a closer look

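At day 2, the differences on adding 2i and A83-01 had opposite signs with and without 4OHT in 3 genes, on 1 array each, but without 4OHT only that of Tff2 was beyond the joint scanner error, so Keg1 and Slc23a3 have no direction there. For Keg1 the log2 difference was 1.17 with 4OHT, against -0.18 with bFGF alone. For Slc23a3 it was 1.16 with 4OHT, against -0.05 with bFGF alone. For Tff2 it was 1.29 with 4OHT, against -0.40 with bFGF alone. The difference between these differences was not tested. The array with all agents was the dimmest, and the median of all genes was 0.30 higher on it than with 4OHT. Dim genes entered that median at the floor of their array, so it can be too high.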

How the results depend on the processing

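No paired analysis was possible because each group had 1 array and replicate numbers mark no pairs. With 1 array a group, no spread between cultures is known, and the floors of dim arrays limit what could be measured. Counts of genes past a threshold stayed within 1.5 times of the value reported under 157 alternatives and moved further under 17. Many of the 157 are limma counts of 0 that stayed 0, which say little about stability. For the MEK inhibitor 2 genes passed with slide as a block, where 622 of all genes did, and 0 to 1 with an array left out, where at most 1639 did. For 4OHT 5 passed with normexp correction (8735 of 19052 genes did), 2 with the mean of probes (4107 of 19204) and 4 with no filter (15772 of 28073). With an array left out 0 to 5 passed, where at most 9550 genes did. A count of 5 includes Enpep, which was dim on both 4OHT arrays. With the median of all genes subtracted, 3 genes were at least 2-fold lower at day 1 than in uncultured PGCs. Under normexp 0 were lower at day 3 than at day 2, at day 10 than at day 6, in the EGC line than at day 10, and with the MEK inhibitor than with bFGF alone, and under quantile normalization 0 were lower at day 3 than at day 2. For 4OHT 1 was lower with the mean of probes and 1 with dim values as measured. The cause of these shifts was not tested.

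Some fitted log2 differences of single genes, none of them past the threshold as reported, changed sign. With an array left out, Enpep ranged from -1.69 to 0.54 for the MEK inhibitor, -0.0098 to 2.22 for the GSK inhibitor, -0.46 to 1.78 for A83-01 and -0.51 to 0.75 for 2i with A83-01. Keg1 ranged from -0.85 to 1.85 for the GSK inhibitor, -0.72 to 1.98 for A83-01 and -0.48 to 1.31 for 2i with A83-01, where Slc23a3 ranged from -0.096 to 1.04 and Tff2 from -0.31 to 0.94. Enpep was 1.26 for 4OHT with normexp and -0.50 for 2i with A83-01 with quantile normalization. With normexp, Prdm14 gave -0.28 for Fxyd2 and -0.0053 for Tff2, Vasa -0.058 for Fxyd2, and Dnd 0.034 for Slc23a3 and 0.074 for Fxyd2. Without the slide block, Nanos2 gave -0.45 for Slc23a3, -0.16 for Fxyd2 and -0.57 for Tff2.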
